A study of Arabidopsis thaliana with 12 samples.

Results

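The genes described here were above 0 in every wild-type (WT) root sample of Arabidopsis thaliana and dropped to an exact 0 in 2 or more of 6 samples of the kn09 mutant. Of 3439 array features, 692 carry 1 gene in the platform annotation, and 83 of these met the rule. Z-ISO, ETFQO, SECE1 and AT1G05340 also met it and were left out, so 79 members remained. Members were chosen by their deposited intensities in these same 12 samples, so their difference between genotypes is a description and carries no test.

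Total RNA was taken from roots of both genotypes, 6 samples each, in the Wassilevskija ecotype. WT and kn09 roots had alike been kept on MS medium, a standard plant culture medium, with 100 mM glucose for 48 h, so no sample was free of glucose. The labels call kn09 hypersensitive to proline and blocked in its breakdown in mitochondria. They do not name the mutated gene, an allele or the number of lines, and do not say whether samples of a genotype were separate cultures, so every p-value covers only the spread among the samples at hand, and that spread may be technical.

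Plants make proline during water and salt stress and burn it afterwards. In mitochondria, proline dehydrogenase oxidises it to pyrroline-5-carboxylate, and pyrroline-5-carboxylate dehydrogenase turns that into glutamate. Proline oxidation feeds electrons to the respiratory chain, and its intermediate is toxic when it accumulates, while added sugar lowers proline dehydrogenase expression. None of 6 proline synthesis and breakdown genes looked for lay on a single-gene feature, so neither the pathway nor a target gene could be checked.

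Each value is a deposited intensity on a linear scale, where the brightest feature of a sample stands at 100. How the low end of this scale was made is not known here, so an exact 0 is a listed value and no proof that a transcript was missing. The platform annotation supplied the gene names, which were not checked against probe sequences. Of 7 root markers, 0 lay on single-gene features, so the root label could not be checked. The 5 single-gene features of photosystem and light-harvesting genes had WT medians from 1.14 (PSB27) to 35.8 (LHB1B2). In these bulk samples, fewer cells of a type and less RNA per cell cannot be told apart.

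Zeros occurred in both genotypes, but the pattern set by the rule ran almost wholly one way. Among single-gene features, 83 of 692 (12%) were above 0 in all WT samples and at 0 in 2 or more kn09 samples, and 2 (0.289%) had the reverse pattern. Over all features the rule took 11.1% (382 of 3439) and the reverse 0.32% (11). Features with several genes or none listed gave 10.9%, so the share among genes with 1 name was near the share elsewhere on the array. Of the 79 members, 42 stood at 0 in 2 kn09 samples, 27 in 3, 5 in 4, 4 in 5 and 1 in all 6.

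**Figure D1:**
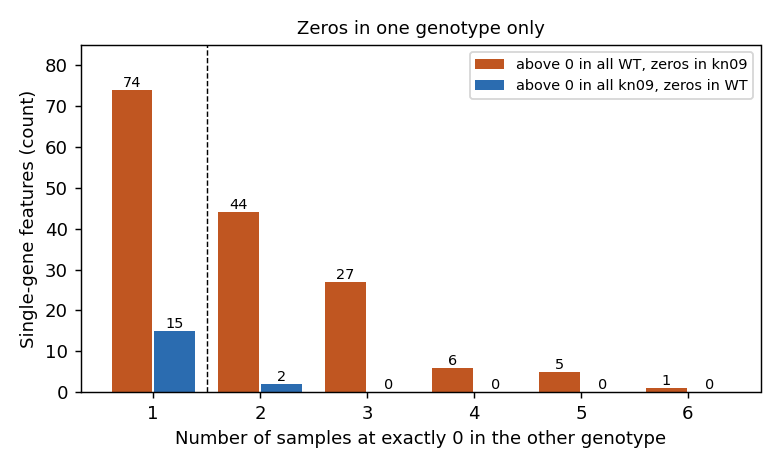
Number of single-gene features (vertical axis) by how many samples of one genotype stood at exactly 0 while all 6 samples of the other were above 0. Bars right of the dashed line meet the rule (the 4 genes left out are included); they hold 44, 27, 6, 5 and 1 features for zeros in kn09, and 2, 0, 0, 0 and 0 for zeros in WT.

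Zeros were also more frequent in kn09 among features that could not become members. In the 2747 features without a single gene, WT samples had 116 to 183 zeros and kn09 samples 313 to 413, so the genotypes did not overlap. The mean was 154 ± 29.5 (SD, n = 6) for WT and 369 ± 38.8 (SD, n = 6) for kn09, a difference of 216 with an exact 2-sided permutation p of 0.00216. Over means of consecutively numbered samples, which 3 against 3 values limit to a smallest p of 0.1, the exact permutation p was 0.1. The excess of members over reverse features thus stood beside a general excess of kn09 zeros, whose part in the members' zeros was not tested. When the 470 lowest features of each WT sample, the mean number of kn09 zeros, also counted as zero, 32 members and 17 reverse features were found. The largest values so treated as zero lay between 0.0241 and 0.057 across WT samples.

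The 10 genes with the most kn09 zeros had WT medians from 0.0341 to 0.122. In AT2G23890 all 6 kn09 samples were 0, and the WT values ran from 0.00182 over a median of 0.122 to 0.168. WT samples 1 to 4 held its signal, at 0.147, 0.133, 0.168 and 0.11, while WT samples 5 and 6 were at 0.00182 and 0.00439. GH9B16, of the GH9 glycosyl hydrolases, which include endoglucanases of the cell wall, had a lowest WT value of 0.0179, a median of 0.0903 and a highest of 0.219. Its only positive kn09 value was 0.000694, in sample 2, so the genotypes did not overlap. The same held for 15.4% of all features and 18.2% of single-gene features, with every kn09 sample below every WT sample. SRX, the sulfiredoxin that restores over-oxidised peroxiredoxins, had 0.0157, 0.0697 and 0.146 as the lowest, median and highest WT values. Here kn09 sample 2 stood at 0.0149 and the others at 0, all below the lowest WT sample, although by little for sample 2.

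AT4G39230 and AT1G25500 also stood at 0 in 5 kn09 samples and were the dimmest of the 10. AT4G39230 had 0.00401, 0.0356 and 0.101 as lowest, median and highest in WT, and 0.0307 in kn09 sample 6, so the genotypes overlapped. AT1G25500 had 0.00529, 0.0341 and 0.0878 in WT, and 0.00526 in kn09 sample 2, just under the lowest WT value.

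Zeros in 4 kn09 samples were found for AGL54, AT3G03890, AT3G02030, PRA1.B3 and AT3G43610. AGL54, an AGAMOUS-like member of the MADS-box transcription factors, had 0.0569, 0.112 and 0.174 as lowest, median and highest WT values, against 0.00614 and 0.00786 in kn09 samples 4 and 6. AT3G02030 had 0.0295, 0.0717 and 0.208 in WT, against 0.015 and 0.00675 in kn09 samples 3 and 4. In these 2 genes every kn09 sample lay below every WT sample, as in 15.4% of all features and 18.2% of single-gene features. Both were listed for their kn09 zeros, so nothing is read from this. The other three overlapped. AT3G03890 had a WT median of 0.079 and 0.0843 and 0.048 in kn09 samples 3 and 6. PRA1.B3, a prenylated RAB acceptor of the kind that works in membrane traffic, had a WT median of 0.0662 and 0.0864 in kn09 sample 3. AT3G43610 reached 0.121 in kn09 sample 4, level with its highest WT value of 0.121, so its zeros stood beside 1 kn09 sample as bright as any WT sample.

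**Figure D2:**
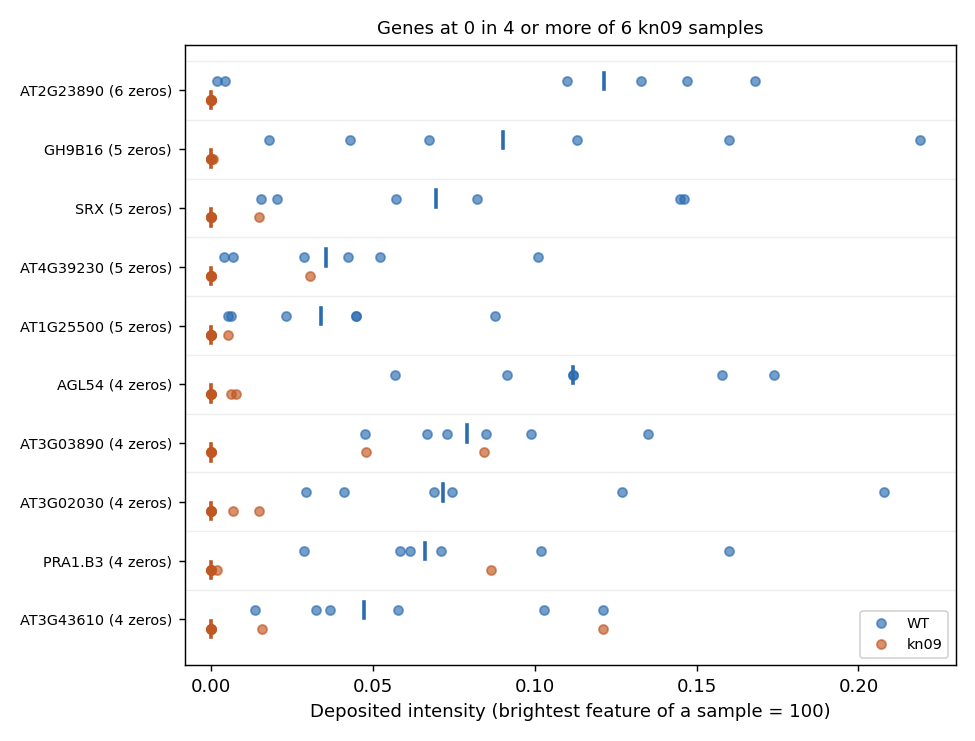
Deposited intensity (horizontal axis, linear) of the 10 genes at 0 in 4 or more kn09 samples; each point is a sample, each vertical tick the median of 6. The kn09 median is 0 in every row, and AT3G43610, AT3G03890, PRA1.B3 and AT4G39230 each have a kn09 sample above their lowest WT sample. Every kn09 sample is below every WT sample in 15.4% of all features and 18.2% of single-gene features.

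A gene name beyond the locus tag was listed for 12 of the 79 members (15.2%) and for 103 of the 692 single-gene features (14.9%). The other 67 members have only a locus tag in the tables used here, so no function is given for them. By words in the names, 2 of 5 cell wall and carbohydrate genes were members, 1 of 2 protein turnover genes, 1 of 7 transcription and chromatin genes, 0 of 6 signalling genes, 0 of 13 other enzymes and 8 of 70 other named genes. Enzymes whose names hold none of the words, such as SRX and GLX2-1, fell under other named genes, as did IQD22 and AT1G78790 (MHF2). These classes were too small to be read further.

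CCS, the chaperone that hands copper to copper/zinc superoxide dismutase, had 0.0306, 0.0801 and 0.199 as lowest, median and highest in WT. In kn09 it stood at 0 in samples 1, 2 and 6 and at 0.0387, 0.0742 and 0.145 in samples 3, 4 and 5, inside the WT range. GLX2-1 is named for glyoxalase II, which completes the glutathione-dependent removal of methylglyoxal. Its WT values were even, with 0.0636, 0.0924 and 0.121 as lowest, median and highest, and its kn09 values were 0 in samples 1, 3 and 5 and 0.0795, 0.0247 and 0.0699 in samples 2, 4 and 6. Positive kn09 samples of CCS and GLX2-1 had medians of 0.926 and 0.756 times the WT median. Over the 417 single-gene features with no zero in WT or kn09 the ratio was 0.642. The rule chose both genes for their kn09 zeros, so nothing is read from these ratios. NTRC, a thioredoxin reductase of plastids on another single-gene feature, had no zero in either genotype, with medians of 0.191 in WT and 0.14 in kn09.

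Of the cell wall genes, GH9B8 had 0.0605, 0.0864 and 0.136 as lowest, median and highest in WT. Its kn09 samples 2 and 3 stood at 0 and the highest kn09 value was 0.043, below every WT sample. The other GH9 genes on single-gene features, GH9B11 and GH9B12, lay just outside the rule, with 1 kn09 zero and no WT zero each. GH9B11 went from a WT median of 0.149 to 0.0617 in kn09, and GH9B12 from 0.0635 to 0.0382. All 4 GH9 features thus had at least 1 kn09 zero and no WT zero, a pattern found for 157 of the 692 single-gene features. It was more frequent among dim features, and the 4 had WT medians from 0.0635 to 0.149. Of single-gene features above 0 in all WT samples, 33 of 92 with a WT median from 0.05 to 0.1 had no kn09 zero. From 0.1 to 0.2 it was 116 of 169, so nothing is read from the family.

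AT1G78790 is MHF2, a histone-fold partner of the FANCM helicase, which limits meiotic crossovers. It had 0.114, 0.219 and 0.315 as lowest, median and highest in WT and was at 0 in kn09 samples 3, 5 and 6. The other kn09 values were 0.00712, 0.0295 and 0.0727, so no kn09 sample reached the lowest WT value. The MADS-box relatives of AGL54, AGL103 and AGL26, were above 0 in all 12 samples, with WT medians of 0.71 and 0.285 and kn09 medians of 0.273 and 0.222.

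In plastids, SPPA is a thylakoid-bound protease and Cpn60beta4 a chaperonin subunit that helps to fold a subunit of the NDH complex. SPPA had 0.0125, 0.0625 and 0.123 as lowest, median and highest in WT, and Cpn60beta4 had 0.00949, 0.0515 and 0.0953. SPPA was at 0 in kn09 samples 1 and 2 and between 0.0189 and 0.0653 in the other four. Cpn60beta4 was at 0 in kn09 samples 1 and 5 and reached 0.0939 in sample 4. Both overlapped widely between genotypes. Cpn60beta3, its relative, had no zero in either genotype, with medians of 0.264 in WT and 0.214 in kn09.

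IQD22, of the calmodulin-binding IQ-domain proteins, had 0.00765, 0.0419 and 0.0881 as lowest, median and highest in WT. It was at 0 in kn09 samples 1 and 4, while kn09 samples 5 and 6 stood at 0.18 and 0.106, above every WT sample. Its kn09 mean of 0.0529 exceeded its WT mean of 0.0435, whereas its kn09 median of 0.0158 was below its WT median. The direction for this gene thus depended on the measure. Its relative iqd32 had 1 zero in each genotype, with medians of 0.129 in WT and 0.0646 in kn09. SIS, named as salt induced and serine rich, had 0.0949, 0.131 and 0.24 in WT. It was at 0 in kn09 samples 2 and 4, with a highest kn09 value of 0.0445, so the genotypes did not overlap. PRA1.B6, the relative of PRA1.B3, had 1 kn09 zero and no WT zero, with medians of 0.102 in WT and 0.0823 in kn09.

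**Figure D3:**
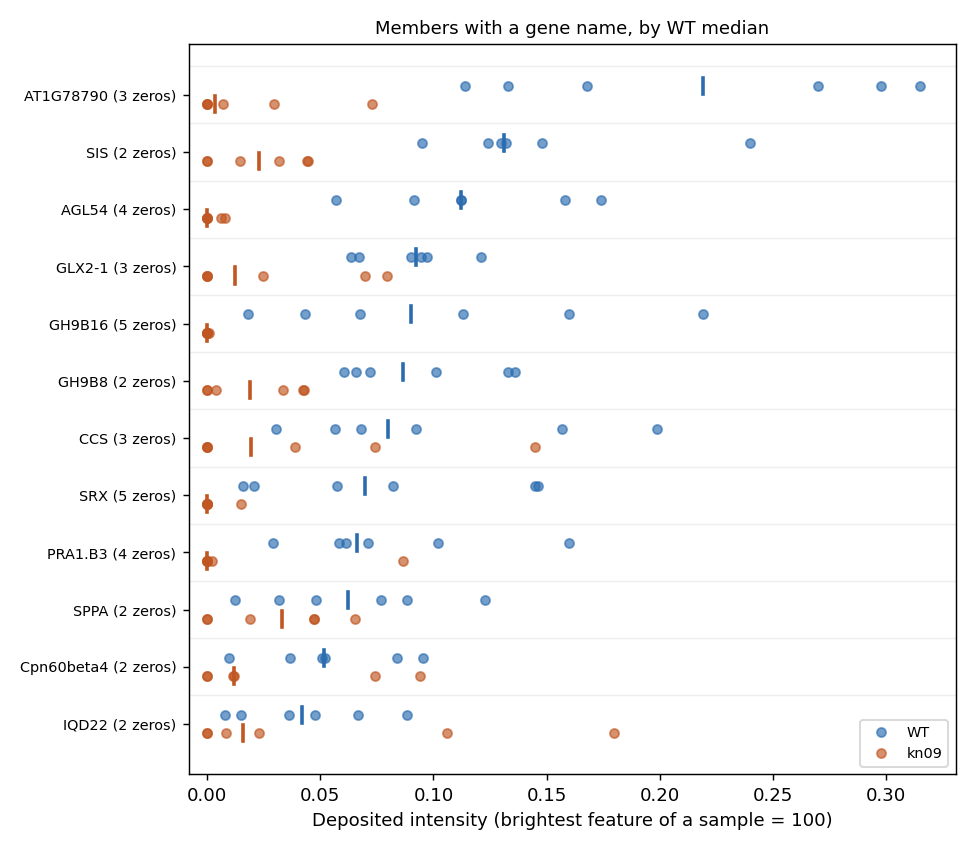
Deposited intensity (horizontal axis, linear) of the 12 members with a gene name, in order of WT median; each point is a sample, each vertical tick the median of 6 (AT1G78790 is MHF2). AT1G78790, SIS, AGL54, GH9B16, GH9B8 and SRX do not overlap between genotypes, whereas IQD22 has its 2 brightest samples in kn09. Every kn09 sample is below every WT sample in 15.4% of all features and 18.2% of single-gene features.

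The members brightest in WT were mostly genes with only a locus tag. AT2G32040 led them, with 0.277, 0.457 and 0.76 as lowest, median and highest in WT, and stood at 0 in kn09 samples 3 and 4. The other kn09 samples were at 0.117 to 0.194, below every WT sample. AT3G11150 had 0.149, 0.287 and 0.552 in WT and at most 0.0252 in kn09, with zeros in samples 1, 2 and 6. AT5G40050 had 0.0932, 0.185 and 0.214 in WT and at most 0.0898 in kn09. With AT1G78790, these were the genes among the 10 brightest whose genotypes did not overlap. Every kn09 sample also lay below every WT sample in 15.4% of all features and 18.2% of single-gene features. The deposited values were lower in kn09 across the array and the rule used this contrast, so nothing is read from these genes.

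The other six of the 10 overlapped. AT4G38040 had a WT median of 0.277, zeros in kn09 samples 2 and 5, and 0.188 in kn09 sample 3, above the lowest WT value of 0.16. AT5G19900 overlapped through WT sample 6, at 0.0172 against a WT median of 0.167. AT1G17744 and AT1G22850 had highest kn09 values of 0.118 and 0.08, against lowest WT values of 0.11 and 0.0759. These pairs of values differed little, so the overlap was narrow. AT4G08630 reached 0.13 in kn09 sample 1, within a WT range of 0.0736 to 0.286, and AT2G14660 reached 0.0975 in kn09 sample 4, within 0.0682 to 0.26.

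**Figure D4:**
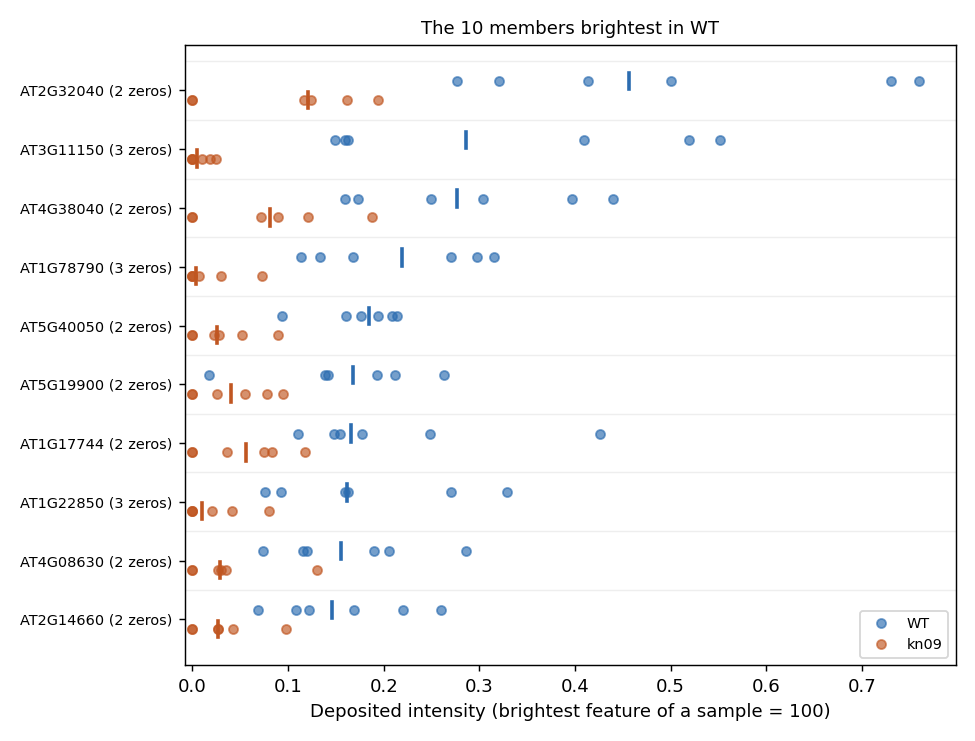
Deposited intensity (horizontal axis, linear) of the 10 members with the highest WT median; each point is a sample, each vertical tick the median of 6. AT2G32040, AT3G11150, AT1G78790 and AT5G40050 have every kn09 sample below every WT sample.

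Most members were dim. Their WT medians ran from 0.0184 to 0.457 with a median of 0.0782, against 0.205 for the 574 single-gene features above 0 in all WT samples and 0.299 for the 417 of them with no kn09 zero. In the typical WT sample the median member ranked at the 24.4th percentile of all features, and AT2G32040 at the 76.4th. The share with 2 or more kn09 zeros was 69.6% (16 of 23) at a WT median under 0.05 and 40.2% (37 of 92) from 0.05 to 0.1. It was 14.8% (25 of 169) from 0.1 to 0.2, 3.31% (5 of 151) from 0.2 to 0.5, and 0 of 139 above. Of the 574, none with a WT median of 0.5 or more was thus at 0 in 2 kn09 samples.

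**Figure D5:**
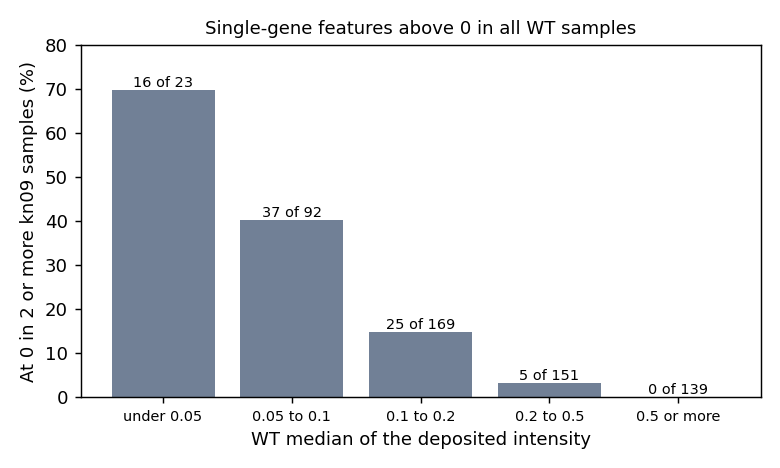
Share of single-gene features at 0 in 2 or more kn09 samples (vertical axis, percent, from 0) by WT median intensity (horizontal axis, 5 ranges), over the 574 above 0 in all WT samples; bar labels give the counts, the 4 genes left out included. The share goes from 69.6% in the dimmest range to 0 in the brightest.

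At the dim end, WT itself came close to 0. In 21 members at least 1 WT sample was under 0.01, and in 24 members all WT samples were at 0.05 or above. The 5 dimmest were AT1G05860, AT5G49120, AT5G52660, AT5G53920 and AT1G21350, with WT medians from 0.0325 down to 0.0184. AT5G52660 had 0.000704, 0.0243 and 0.0712 as lowest, median and highest in WT, and its kn09 values were 0 in samples 4 and 6 but 0.117 and 0.0835 in samples 1 and 2. It was the only member whose kn09 median, 0.045, exceeded its WT median. The highest WT value of a member was typically 5.09 times the lowest (median over members), against 2.55 times for single-gene features with no kn09 zero.

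Just outside the rule, 74 single-gene features were above 0 in all WT samples and at 0 in exactly 1 kn09 sample. The brightest was AT5G19750, with a WT median of 0.561 and a kn09 median of 0.167, followed by AT4G35980 with 0.453 and 0.0955. AT1G07460 went from 0.323 to 0.105 and AT3G50270 from 0.313 to 0.0789. These 4 were brighter in WT than most members, whose brightest, just inside with 2 zeros, was AT2G32040.

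The reverse pattern was held by AT5G39980 and AT5G02050. AT5G39980 stood at 0 in WT samples 5 and 6, but WT samples 1 and 2 were at 0.488 and 0.47, above its highest kn09 value of 0.129. Its mean was therefore higher in WT, at 0.181, than in kn09, at 0.0811, although its zeros lay in WT. Its median went the other way, at 0.0654 in WT and 0.0869 in kn09. AT5G02050 stood at 0 in WT samples 2 and 3 and reached 0.217 in WT sample 1, against 0.0446 to 0.182 in kn09. Neither gene separated the genotypes.

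The zeros of the members were spread over all kn09 samples. Samples 1 to 6 held 42, 38, 29, 28, 34 and 40 of the 211 zeros, and their zeros over the whole array numbered 522, 521, 398, 437, 457 and 488. Samples 1, 2 and 6 held the most in both counts. Of the 42 members with 2 zeros, 13 (31.0%) had them in samples 1 and 2, 3 and 4, or 5 and 6. Of all 219 features with 2 zeros under the rule it was 34.7%. These pairs make up 3 of the 15 possible. Samples 1 and 6 shared the zeros of as many of these members as samples 1 and 2, at 7 each. In WT, samples 5 and 6 were dimmer over all features, with medians of 0.139 and 0.144 against 0.211 to 0.227 in samples 1 to 4. Their medians over the members were 0.0463 and 0.0546 against 0.0869 to 0.104, and 47 members (59.5%) had their lowest WT value there, against 47.9% of all features above 0 in WT. Without kn09 samples 1 and 2, 3 and 4, or 5 and 6 the rule found 43, 58 and 47 genes, since fewer samples could then hold zeros. Without WT samples 1 and 2, 3 and 4, or 5 and 6 it found 89, 88 and 92, since fewer samples then had to be above 0.

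Where a member was above 0 in kn09, it was still mostly below WT. This comparison is on the deposited scale, where the whole array was lower in kn09: sample medians over all features were 0.139 to 0.227 in WT and 0.102 to 0.121 in kn09, without overlap. Over the 78 members with a positive kn09 value, the median of those values was typically 0.482 times the WT median. In the 417 single-gene features with no zero in WT or kn09, kn09 was also lower, at 0.642 times. In 33 members the highest kn09 sample exceeded the WT median. Every kn09 sample lay below every WT sample in 19 members (24.1%), against 15.4% of all features and 18.2% of single-gene features. The rule used this contrast, and the 417 features were taken for having no zero. Nothing is therefore read from that count or from the ratios of 0.482 and 0.642.

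A further measure, which the rule did not use, came from 11 members whose gene is also listed on a feature with several genes. On 2 of these 11 features the rule was met, for GH9B16 and AT1G76240, against 10.9% of all features with several genes or none listed. The feature that lists GH9B16 among 3 genes had a WT median of 0.128, a kn09 median of 0.0148 and 3 kn09 zeros. That of AT1G76240 went from 0.0379 to 0.000599, also with 3 kn09 zeros. For SIS and PRA1.B3 the second feature was at 0 in 1 kn09 sample, with medians of 0.149 and 0.0815 for SIS and of 0.141 and 0.0405 for PRA1.B3, WT first. That of AGL54 had no zero and medians of 0.192 in WT and 0.182 in kn09. Medians were lower in kn09 on 7 of the 11 and higher on 3, while 76.9% of all features without a single gene were lower in kn09. On the feature that lists AT3G60590 both medians were 0, with zeros in 5 samples of each genotype. The 3 higher ones had no zero. They were those of AT3G03890 (0.0971 in WT, 0.11 in kn09), AT2G37420 (0.175 and 0.214) and AT5G01860 (3.66 and 4.08). Such features also detect other genes, and their signal cannot be assigned to the member.

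In the limma fit over all features, 7 of the 79 members were lower in kn09 at an adjusted p under 0.05, against 6.31% of all features and 6.79% of single-gene features, and 72 did not pass. The median log2 difference after quantile normalization was -1.0 over the members and -0.06 over all features. Since the rule used this contrast, these values only describe the members. The count was 4 without WT sample 3, without WT sample 4 or without kn09 sample 5. With consecutive samples as a random block it was 1, beside 27 of all 3439 features. On the intensities as deposited it was 45, beside 1158 of all features.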

How the data were processed

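Root RNA of 6 WT and 6 kn09 samples was measured on an expression array, and groups came from the sample titles. The deposited table holds linear intensity values of 3439 features; how it was scanned, background-corrected and scaled is not given in the labels. Every sample has a maximum of 100 and none is below 0. Of the sample pairs, 0 held identical values. The platform annotation lists 1562 features, 692 with 1 gene and 870 with several, and 690 of the 692 matched the TAIR10.1 table by Entrez identifier. The build behind the array is not stated, so no coordinates are given.

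Zeros were counted on the intensities as deposited. For limma 3.58.1 (R 4.3.3), values were quantile normalized, zeros and values under the 1st percentile of positive values (0.0062) were raised to it, and log2 values were fitted with genotype as the only term, with Benjamini-Hochberg adjustment over all features. The code was tested on simulated data. Zeros per sample were compared by exact permutation over 924 labelings. WT and kn09 samples of equal replicate number had deviations from their group means that correlated at 0.068 to 0.1. This was not compared with samples of unequal number, so whether the numbers pair samples is not known. The main fit treated samples as unpaired. The number of arrays limits the precision.

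The members, classes and lists were chosen with earlier results of these data known. The text names members with 4 or more kn09 zeros, the 10 brightest and 5 dimmest in WT, up to 3 per class, the 4 brightest genes with 1 kn09 zero and the reverse genes. CCS, SPPA, Cpn60beta4, IQD22 and the family relatives were added after their values were seen. Promoter motifs were not analysed here.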

Additional observations from a re-analysis of the deposited data

Results flagged for a closer look

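In 56 sets of 6 samples, 8 held a sample far from the other five, where chance gives about 1 in 20. In SIS, WT sample 4 stood at 0.24, while the other WT samples lay between 0.0949 and 0.148. In AT4G08630, kn09 sample 1 stood at 0.13, with the next at 0.0354. The other 6 lay in kn09 sets with 4 or 5 zeros. With 5 zeros any positive value stands far from the rest. These were GH9B16 at 0.000694, SRX at 0.0149 and AT1G25500 at 0.00526 in sample 2, and AT4G39230 at 0.0307 in sample 6. Sets with 4 zeros were flagged for PRA1.B3 at 0.0864 in sample 3 and AT3G43610 at 0.121 in sample 4. AGL54, AT3G02030 and AT3G03890, also with 4 zeros, were not flagged.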

How the results depend on the processing

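The count of 79 members was 153 with 1 or more zeros, 37 with 3 or more, 26 with a WT median of at least 0.1, 74 with values up to 0.00372 as zero, and 60 to 86 with 1 sample left out. The reverse count of 2 was 17, 0 and 0 under the first 3 of these, 6 with 5 of 6 samples above 0, and 1 to 4 with 1 sample left out. Chosen after seeing the data, equal ranks as zero in WT gave 32 members and 17 reverse genes. Leaving out consecutive pairs gave 43, 58 and 47 members without kn09 samples 1 and 2, 3 and 4, or 5 and 6, and 88 to 92 without a WT pair. The reverse count was 1 without each WT pair, and 4 and 7 without kn09 samples 1 and 2 or 3 and 4. Members outnumbered reverse genes in every one of these counts. The excess of 216 kn09 zeros outside single-gene features had an exact permutation p of 0.1 over pair means, the smallest possible there, and of 0.0312 with the replicate number as a block (paired sign flips). Without single samples it was 207 to 227.

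In limma, 217 features were lower in kn09. The count was 1158 on deposited intensities, 199 with median scaling, 213 of 3278 with zeros as missing, 266 of 2033 with a median of at least 0.1, 116 with the replicate number as a block, 27 with consecutive samples as a random block, and 82 to 249 without single samples, moving by over 1.5 times for each sample but WT 1, WT 2 and kn09 3. For the members it was 7, with 45 on deposited intensities, 18 with median scaling, 2 with zeros as missing, 6 with the replicate block, 1 with the random block, and 4 to 9 without single samples. With a median of at least 0.1 it was 0 of the 4 members left, 3 of them at an unadjusted p under 0.05 in limma. The causes were not tested. At intensities this dim, a zero cannot be told apart from a low signal.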
